A study of Mus musculus with 6 samples.

Results

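The mouse miR-193 and miR-365 miRNAs were followed in c-kit+ cardiac progenitor cells, heart cells sorted by magnetic beads on the receptor tyrosine kinase c-kit (gene Kit). The members were taken by name from the table of known mature miRNAs: mmu-miR-193a-3p, mmu-miR-193a-5p, mmu-miR-193b-3p, mmu-miR-193b-5p and mmu-miR-365-3p, 5 of 1978 names, written here without the species prefix mmu. The study compared 3 control libraries, labelled 0 hours, with 3 libraries of cells kept 12 hours under hypoxia, all from wild-type male C57BL/6 hearts at 4-6 weeks of age. The sources used here give no oxygen level, the treatment label names hypoxia for the controls too, and hypoxia cannot be told apart from the hours of culture unless the controls were cultured as long. The labels call the libraries biological replicates without naming animals or cultures, so the spread that p-values are measured against may be technical in part. The extraction protocol speaks of exosome RNA and the design text of cellular RNA.

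A miRNA hairpin yields a 5p and a 3p arm, and the loaded arm represses mRNAs that pair with its seed, bases 2 to 8. miR-193a and miR-193b have been described as repressors of KIT in leukaemia and of the protease gene PLAU in tumour cells. miR-193b and miR-365 have been linked to brown fat differentiation and to repression of cyclin D1, which drives entry into the cell cycle.

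The genome holds these miRNAs as a pair of clusters, each with 1 miR-193 and 1 miR-365 hairpin on the plus strand. On chromosome 11, Mir193a (chr11:79711969-79712034) was followed after 14365 bases by Mir365-2 (chr11:79726400-79726511). On chromosome 16, Mir193b (chr16:13449523-13449601) was followed after 4238 bases by Mir365-1 (chr16:13453840-13453926). Positions are those of GRCm38, the assembly called mm10 in the submitters' processing notes. GENCODE M21 has no gene over any of the 4 hairpins on the same strand, and both chromosome 16 hairpins lie within an intron of Gm15738, an antisense RNA gene of the opposite strand. The nearest protein-coding gene upstream is Rab11fip4, 13945 bases before Mir193a, and Mrtfb, 31993 bases before Mir193b.

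**Figure D1:**
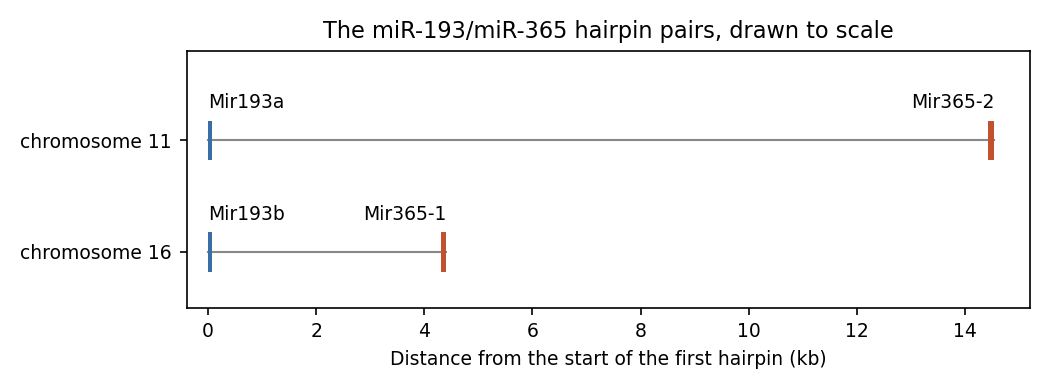
Hairpin pairs on chromosomes 11 and 16, plotted by distance in kb from the start of the first hairpin (blue, miR-193; orange, miR-365; box width is hairpin length). The space between hairpins is 14365 bases on chromosome 11 and 4238 bases on chromosome 16.

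The mature sequences show which arms can be assigned to a locus, and they are given 5′ to 3′ with the seed in capitals, from RefSeq on GRCm38.p6, where all 5 members and both miR-365 5p arms were matched.
miR-193a-3p: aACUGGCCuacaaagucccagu
miR-193b-3p: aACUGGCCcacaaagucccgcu
miR-193a-5p: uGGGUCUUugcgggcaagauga
miR-193b-5p: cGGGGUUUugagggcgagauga
miR-365-3p: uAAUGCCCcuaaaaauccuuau
miR-365-1-5p: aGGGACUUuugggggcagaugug
miR-365-2-5p: aGGGACUUucaggggcagcugug
Counting from 1 at the 5′ end of miR-193a-3p, miR-193b-3p differs by U9C, A20G and G21C, so their seed is the same, and no other mature miRNA of the RefSeq table has it. The 5p arms of miR-193 differ at 5 of 22 positions (U1C, U5G, C6U, C11A and A16G from miR-193a to miR-193b), of which 2 lie in the seed.

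The mature miR-365-3p is the same sequence from Mir365-1 and Mir365-2, so its reads cannot be assigned to a chromosome. The 5p arms of those hairpins differ by U10C, G11A and A19C from miR-365-1-5p to miR-365-2-5p, and were therefore read beside the members to tell the loci apart. The hairpins are printed to show this, with both mature arms in capitals.
Mir365-1: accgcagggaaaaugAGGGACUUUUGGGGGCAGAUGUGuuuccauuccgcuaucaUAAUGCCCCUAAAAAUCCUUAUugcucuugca
Mir365-2: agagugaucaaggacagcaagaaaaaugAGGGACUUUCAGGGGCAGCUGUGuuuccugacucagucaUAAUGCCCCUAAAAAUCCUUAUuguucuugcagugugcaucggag

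Because the cells were sorted on c-kit, the longest annotated 3′ UTR of Kit (2177 bases) was searched for GGCCAGT, the complement of the miR-193-3p seed, on the sense strand. It holds this heptamer at 2 places, shown with the heptamer in capitals.
Kit, chr5:75654907-75654928, plus strand: tttgaaaagtatGGCCAGTagt
Kit, chr5:75655658-75655679, plus strand: tcccggacatcgGGCCAGTatc
Of 1347 mouse 3′ UTRs within 10% of that length, 13.4% hold GGCCAGT at least once. The share that holds it at 2 or more places, as Kit does, was not computed. The 3′ UTR of Plau (935 bases) holds it at 1 place, and 7.5% of 1340 UTRs of similar length do. That of Ccnd1, the cyclin D1 gene, has no match, where 16.3% of 1212 UTRs of similar length hold one. GGGCATT, the complement of the miR-365-3p seed, was found in none of these 3 UTRs. Among UTRs of similar length, 11.4% (Kit), 15.3% (Ccnd1) and 4.9% (Plau) hold it. Such matches are descriptions of letters, and mRNA was not measured in the files used here.

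Each library held between 12285970 and 16975987 counts of known miRNAs. Levels are given as CPM, counts scaled to a common library size of known miRNA counts with TMM factors of 0.8959 to 1.067. Libraries are named by group and by the letter A, B or C of their column. Endothelial miRNAs (miR-126a arms) summed to between 200661 and 249641 CPM over the 6 libraries, and those of smooth muscle and fibroblasts to between 26072 and 57420, highest in control A and hypoxia A. Cardiomyocyte miRNAs stayed at or below 173 CPM and blood cell miRNAs at or below 30.7 CPM, and in each of these 4 lists the ranges of control and hypoxia overlapped. As a check of the hypoxia label, miR-210-3p, a target of the hypoxia-inducible factors, lay higher in all 3 hypoxia libraries (440 to 674 CPM) than in the controls (187 to 296 CPM). Of the 619 known miRNAs that passed a filter on low counts, 12.9% had groups that did not overlap, in either direction. No library held 0 counts of any member.

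miR-365-3p was the most abundant member and the chromosome 16 arms were the scarcest. The 5 members together took 0.0229% (control A), 0.0245% (control B) and 0.0283% (control C) of known miRNA counts, and 0.0235%, 0.0316% and 0.0299% in hypoxia A, B and C. Counting error is small beside that spread, with an exact Clopper-Pearson 95% interval of 0.0220 to 0.0237% in control A. Controls averaged 0.0252% ± 0.00279 and hypoxia libraries 0.0283% ± 0.00424 (SD, n = 3 each). The difference of 0.00309 percentage points was within the spread between libraries (two-sided exact permutation test of 3 against 3 libraries, p = 0.3, where 0.1 is the smallest possible). Taken by library letter, hypoxia had the higher share in 3 of 3 pairs, by 0.000651 (A), 0.00707 (B) and 0.00156 (C) percentage points (2-sided exact permutation of signs, p = 0.25, which is the lowest that 3 pairs allow). These are shares of raw counts, without the TMM factors (1.005 in control A, 1.067 in hypoxia A). With those factors the direction of pair A turns, so the 3 of 3 holds for raw shares only. How many of all tested miRNAs lay higher in 3 of 3 pairs was not computed.

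All of these miRNAs are 22 or 23 bases long, so their CPM can be set side by side, although small RNA libraries are known to capture sequences unequally. By mean CPM over the 6 libraries, miR-365-3p (186 CPM) ranked 137 among 1322 detected known miRNAs. It was followed by miR-193a-3p (48.1 CPM, rank 236), miR-193a-5p (25.7 CPM), miR-365-2-5p (17.6 CPM) and miR-193b-3p (7.42 CPM, rank 396), with miR-365-1-5p (0.664 CPM) and miR-193b-5p (0.524 CPM) last. The lowest library of miR-365-3p (127 CPM) lay above the highest of miR-193a-3p (70.7 CPM). Likewise the ranges of miR-365-2-5p and miR-193b-3p did not overlap, nor did those of miR-193b-3p and miR-365-1-5p. The order was not settled for 3 neighbouring pairs whose ranges overlapped: miR-193a-3p with miR-193a-5p, miR-193a-5p with miR-365-2-5p, and miR-365-1-5p with miR-193b-5p. miR-193a-3p exceeded miR-193a-5p in 5 of 6 libraries, and miR-193a-5p exceeded miR-365-2-5p in 6 of 6.

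**Figure D2:**
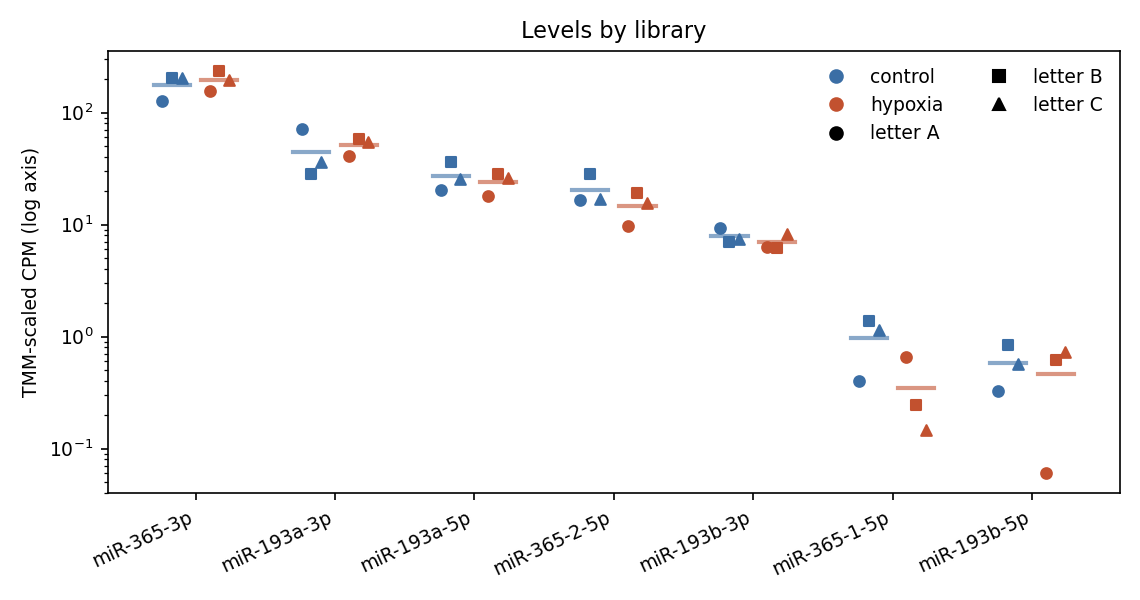
TMM-scaled CPM on a log axis for the 5 members and both miR-365 5p arms, 1 point per library (blue, control; orange, hypoxia; symbols, letters) with group means as lines. Control and hypoxia points overlap for each of the 7 miRNAs, and arms of chromosome 16 (miR-193b and miR-365-1) lie below those of chromosome 11.

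None of the members differed between hypoxia and control beyond the spread between libraries. Of the 5 members 4 passed the filter on low counts, and edgeR's quasi-likelihood test, adjusted over all 619 tested miRNAs, called 0 of the 4 (background 0% of tested miRNAs) and gave 0 at an unadjusted p under 0.05 (background 6.79%). DESeq2 and limma-voom also called 0 members and gave 0 at that unadjusted p. A pairing of libraries by column letter was read from these same data and is given by no label. With that letter as a replicate block, the calls over all miRNAs rose from 0 to 14 (2.26%). In that fit edgeR again called 0 of the 4 members, with adjusted p from 0.57 to 0.67. It gave 0 members at an unadjusted p under 0.05 (background 21.3%). Without the block, edgeR did not call miR-210-3p either (log2 fold change 1.19, SE 0.25, edgeR adjusted p = 0.65). With the block, miR-210-3p was called (edgeR adjusted p = 0.024). A lack of calls without the block is therefore no evidence that levels were equal. For 0 of the 4 members did the groups separate without overlap, against 12.9% of all tested miRNAs. The fold changes lay above 0 for 2 members and below 0 for 2, with a median of -0.02 on the log2 scale against 0.01 over all tested miRNAs.

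miR-193a-3p, of the seed described as repressing KIT, gave most reads with that seed. Its levels were 70.7, 28.0 and 36.1 CPM in control A, B and C and 40.9, 57.8 and 55.1 CPM in hypoxia A, B and C. The controls held both the highest and the lowest library, and all hypoxia libraries lay between them. Group means were 44.9 ± 22.6 and 51.3 ± 9.10 CPM (SD, n = 3 each). The log2 fold change was 0.19 (SE 0.35, edgeR adjusted p = 0.99), with a 95% interval from 0.660-fold to 1.97-fold. The log2 difference was -0.79 in pair A, 1.04 in pair B and 0.61 in pair C. The fitted value moved with single libraries, from -0.07 without control B to 0.66 without control A, and with the block it was 0.82 without pair A (edgeR adjusted p = 0.062), -0.12 without pair B and 0.11 without pair C.

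miR-193b-3p shares that seed and was the steadiest member, with a highest library 1.49 times the lowest. It stood at 9.23, 6.99 and 7.51 CPM in control A, B and C and at 6.37, 6.20 and 8.20 CPM in hypoxia A, B and C. The groups overlapped, hypoxia C lying above 2 of the controls. Means were 7.91 ± 1.17 and 6.92 ± 1.11 CPM (SD, n = 3 each), with a log2 fold change of -0.19 (SE 0.24; by edgeR, adjusted p = 0.99) and an interval from 0.602-fold to 1.27-fold. A 2-fold difference in either direction lies outside this interval. The fitted value was -0.09 without control A and -0.36 without hypoxia C, and with the block -0.02 without pair A and -0.37 without pair C.

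miR-365-3p, the shared arm of both clusters, stood at 127, 202 and 204 CPM in control A, B and C and at 155, 236 and 195 CPM in hypoxia A, B and C. The library of letter A was the lowest in either group. The A libraries were also the highest in the listed smooth muscle and fibroblast miRNAs (57420 and 50347 CPM summed, against 26072 to 32967 CPM in the other 4), and the part of this in miR-365-3p was not tested. Means were 177 ± 43.6 and 195 ± 40.2 CPM (SD, n = 3 each), with a log2 fold change of 0.14 (SE 0.25; by edgeR, adjusted p = 0.99) and an interval from 0.738-fold to 1.64-fold. Without control A or hypoxia B its sign turned (-0.07 and -0.04).

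Of the 5p arms of miR-193, miR-193a-5p gave 20.2, 36.1 and 25.6 CPM in control A, B and C and 17.9, 28.4 and 26.3 CPM in hypoxia A, B and C. As for miR-365-3p, the A libraries, high in smooth muscle and fibroblast miRNAs, were the lowest of each group, and a link was not tested. Other members went otherwise: control A was the highest control for miR-193a-3p (70.7 CPM) and miR-193b-3p (9.23 CPM). In hypoxia the A library was the lowest for miR-193a-3p (40.9 CPM) but not for miR-193b-3p. The log2 fold change of miR-193a-5p was -0.17 (SE 0.28, edgeR adjusted p = 0.99), and 0.06 without control B. miR-193b-5p was counted 4, 11 and 9 times in control A, B and C and 1, 10 and 10 times in hypoxia A, B and C, too few for the filter. Fitted without the filter it gave a log2 fold change of -0.34 (SE 0.72; by edgeR, adjusted p = 0.94).

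**Figure D3:**
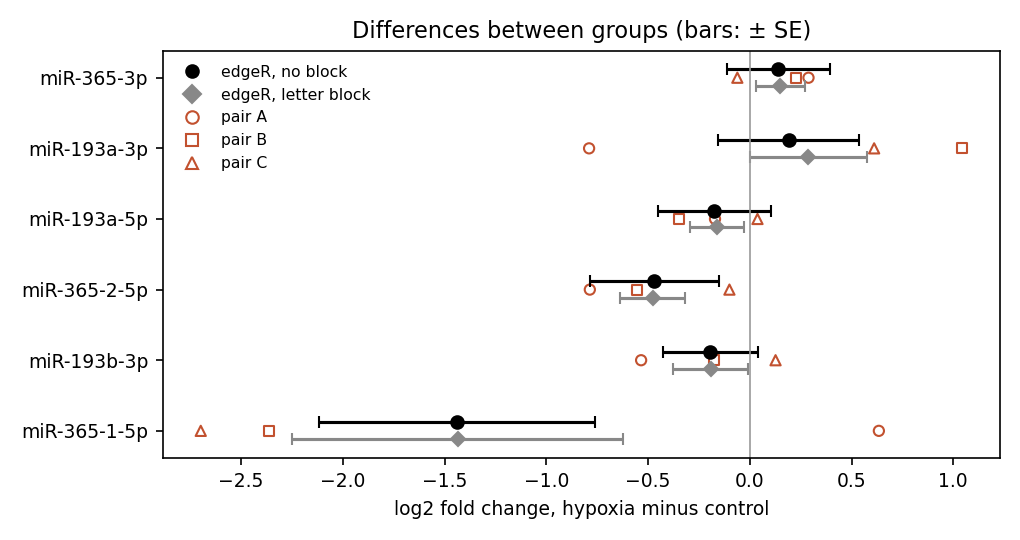
log2 fold change of hypoxia against control with ± SE from edgeR without a block (black circles) and with the letter block (grey diamonds), and the log2 difference within each same-lettered pair (open symbols), for the tested members and both miR-365 5p arms. The pairs of miR-193a-3p lie on both sides of 0 (-0.79, 1.04 and 0.61), and those of miR-365-2-5p all lie below 0.

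The miR-365 5p arms, which separate the loci, had the lowest log2 fold changes of the 2 clusters, and neither passed. miR-365-2-5p, from chromosome 11, stood at 16.6, 28.0 and 16.8 CPM in control A, B and C and at 9.62, 19.1 and 15.7 CPM in hypoxia A, B and C. Each hypoxia library lay below the control of its letter (log2 differences of -0.79, -0.56 and -0.10), as in 19.7% of all tested miRNAs, while the groups as wholes overlapped. Its log2 fold change was -0.47 (SE 0.32, edgeR adjusted p = 0.88), and -0.48 (SE 0.16, edgeR adjusted p = 0.13) with the replicate block. Without the block it was -0.19 without control B, -0.24 without hypoxia A and -0.72 without hypoxia B.

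miR-365-1-5p, from chromosome 16, was counted 5, 18 and 18 times in control A, B and C and 11, 4 and 2 times in hypoxia A, B and C. Its log2 fold change was -1.44 (SE 0.68, edgeR adjusted p = 0.73), with an interval from 0.126-fold to 1.08-fold. The log2 difference was 0.63 in pair A, -2.36 in pair B and -2.70 in pair C. It was -2.27 without hypoxia A, and with the block -2.64 without pair A and -0.91 without pair C.

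By counts of locus-specific arms, the chromosome 11 cluster gave most of the reads in every library. Of the reads of miR-193a-3p and miR-193b-3p, which share a seed, miR-193b-3p took 13.3% over all libraries, from 9.68% in hypoxia B (exact 95% interval 7.96 to 11.6%) to 19.96% in control B (16.4 to 23.9%). The share of miR-365-1-5p among both miR-365 5p arms was 3.67% (58 of 1579 reads), from 0.917% in hypoxia C to 6.43% in hypoxia A. For the miR-193 5p arms, miR-193b-5p took 1.97% (45 of 2289 reads). The 3 comparisons place chromosome 16 below chromosome 11, but the share differed between arms, and intervals cover counting error only.

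The hairpins differed in the share of reads from each arm. Unequal capture of sequences can shift such shares, and its part here was not tested. For Mir193b the 3p arm took 93.5% of reads, with every library between 89.2% and 99.1%. For Mir193a it took 65.1%, and the 3p share was 77.8% in control A, 43.7% in control B and 58.5% in control C against 69.5%, 67.0% and 67.7% in hypoxia A, B and C. The 3 control libraries had exact 95% intervals that did not overlap one another (75.3 to 80.2%, 40.3 to 47.2% and 55.3 to 61.6%), whereas the 3 hypoxia intervals all overlapped. The 5p arm exceeded the 3p arm in control B alone.

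Ratios within a library do not depend on scaling, and 7 were compared between groups on the log2 scale with 0.5 added to each count. None differed beyond the spread between libraries (two-sided exact permutation tests, raw p from 0.3 to 1, adjusted p from 0.93 to 1, smallest possible raw p 0.1). The ratio of miR-193a-3p to miR-193a-5p averaged 0.65 ± 1.09 in the controls and 1.09 ± 0.09 under hypoxia (SD, n = 3 each). The difference of 0.45 became -0.06 without control B and 1.03 without control A. The ratio of miR-193a-3p to miR-193b-3p was 2.40 ± 0.48 and 2.88 ± 0.29, higher in hypoxia by 0.48 (exact permutation p = 0.3), with differences of -0.26 in pair A, 1.22 in pair B and 0.48 in pair C. The difference was 0.75 without control A, 0.28 without control B and 0.31 without hypoxia B. The ratio of miR-193b-3p to miR-365-3p, the latter an arm that either cluster can make, was -4.46 ± 0.59 and -4.80 ± 0.38 (SD, n = 3 each). That of miR-365-1-5p to miR-365-2-5p was -4.46 ± 0.71 and -5.45 ± 1.44 (SD, n = 3 each). The difference was 1.42 in pair A, -1.81 in pair B and -2.60 in pair C, and the difference of the means lay between -0.50 without hypoxia C and -1.82 without hypoxia A.

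**Figure D4:**
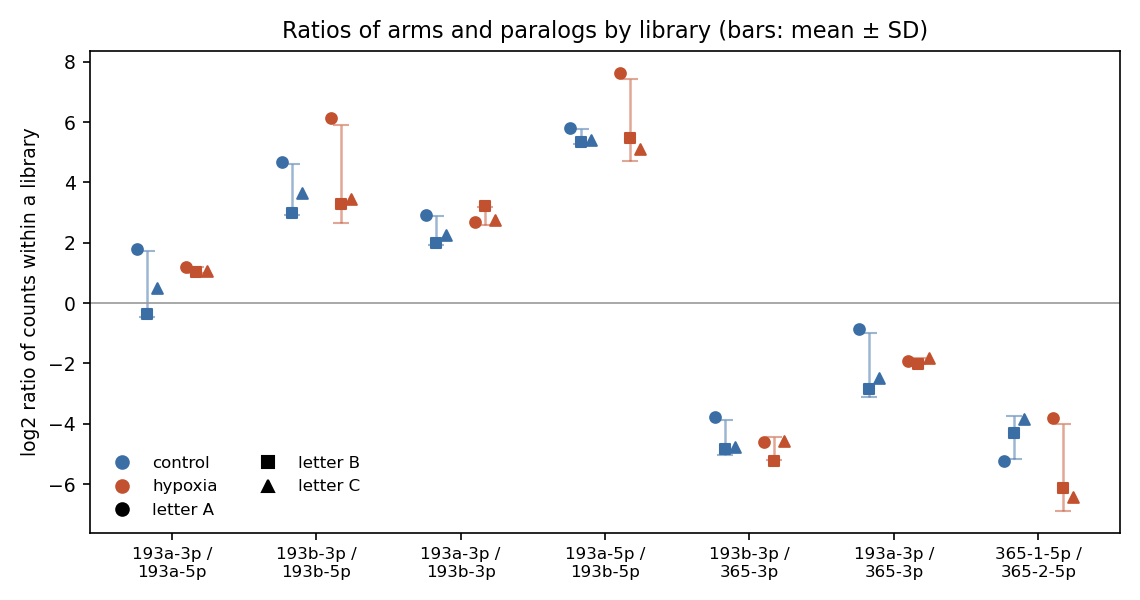
log2 ratio of the counts of 2 arms within a library, 1 point per library (blue, control; orange, hypoxia; symbols, letters) with mean ± SD, for 7 ratios. The 3 hypoxia libraries lie close together for miR-193a-3p to miR-193a-5p (SD 0.09) while the controls spread (SD 1.09), and control and hypoxia points overlap for each ratio.

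Other miRNAs described as repressors of Kit were each more abundant, by mean CPM, than any miR-193 arm. Over 5 such miRNAs edgeR called 0, with or without the block, with 2 of 5 above 0 and a median log2 fold change of -0.03 against 0.01 over all tested miRNAs. miR-221-3p averaged 2485 ± 392 CPM in control libraries and 2439 ± 132 CPM in hypoxia libraries, and miR-222-3p, from the same cluster, 1655 ± 473 and 1182 ± 95.7 CPM (SD, n = 3 each). The log2 value of miR-222-3p was -0.48 (SE 0.23, edgeR adjusted p = 0.73).

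Among 14 other miRNAs linked to brown fat, edgeR called 0, with or without the block, with 7 of 14 above 0 and a median of 0.00. The list was not split into promoters and repressors of brown fat formation, so this count and median do not describe that process. miR-27b-3p was the most abundant (15666 ± 1078 CPM in control, 16274 ± 2087 CPM in hypoxia, SD, n = 3 each). miR-455-3p, which promotes brown adipocyte formation, gave a log2 fold change of -0.31 (SE 0.42; by edgeR, adjusted p = 0.99).

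Of 9 other miRNAs described as repressors of cyclin D1, 8 lay above 0, with a median log2 fold change of 0.34 against 0.01 over all tested miRNAs. The share above 0 over all tested miRNAs was not computed. Whether the listed miRNAs vary independently of each other was not tested, so the 8 may not be separate observations. The list was chosen with earlier results of these data known, and its upward lean describes these names only. edgeR called 0 without the block and 1 of 9 with it, where 2.26% of all tested miRNAs were called. That one was miR-503-5p, which rose by 1.00 on the log2 scale with the block (SE 0.12, edgeR adjusted p = 0.0072), with means of 78.9 ± 21.1 CPM in control libraries and 160 ± 51.9 CPM in hypoxia libraries (SD, n = 3 each). That call is among those lost without pair A or pair C, where the block called 0 of all tested miRNAs. miR-16-5p, a repressor of several cell cycle genes, lay at 0.41 on that scale without the block (SE 0.18, edgeR adjusted p = 0.72).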

How the data were processed

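The authors deposited raw read counts as whole numbers, 1 column per library, for 1978 known and 838 predicted miRNAs. Per the submitters' processing notes, bcl2fastq 2.0, DESeq2 and mm10 were used, with no role given. The aligner, the counter and the handling of multiply matching reads were not given in the sources used here. Column digits 0 and 1 were read as 0 hours and 12 hours; letters match no replicate number, so every direction rests on that reading. In R 4.3.3, edgeR 4.0.16 was run with filterByExpr, TMM, the quasi-likelihood test and Benjamini-Hochberg adjustment at 0.05; SE is the absolute log2 fold change over the square root of F, and 95% intervals use the fit's total degrees of freedom. limma 3.58.1 and DESeq2 1.42.0 were alternatives. The fit was tested on simulated data. Deviations from group means correlated at 0.48, 0.39 and 0.25 for letters A, B and C, and at most 0.10 for unlike letters. Letters were therefore taken to pair libraries, though no label gives that pairing. Centring on 3 libraries ties the values of unlike letters to those of like letters, so this contrast is in part built in. Predicted miRNAs entered only a total of counts. Described in full were the members, both miR-365 5p arms, named lists and, for miR-193b-3p and miR-365-3p, the 5 best-correlated miRNAs of at least 10 CPM. Members and lists were chosen with earlier results of these data known.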

Additional observations from a re-analysis of the deposited data

How the results depend on the processing

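Over 20 alternatives, none called any member or miR-365 5p arm (lowest adjusted p = 0.056, for miR-365-2-5p with the replicate block and no filter, an alternative chosen after seeing the data). The count of called known miRNAs, 0 of 619, was 4 without the filter, 1 with DESeq2, 14 with the replicate block, 36 with that block in DESeq2 and 64 with the block and no filter. It was 0 to 23 when libraries or, with the block, pairs were left out, reaching 23 without pair B. Directions kept their sign under every change of scaling, filter, tool and block, and turned only when libraries were left out, with ranges of -0.12 to 0.82 for miR-193a-3p, -0.37 to 0.059 for miR-193a-5p and -0.071 to 0.28 for miR-365-3p, and for differences in log2 ratios -0.058 to 1.03 (miR-193a-3p to miR-193a-5p), -0.41 to 1.02 (miR-193b-3p to miR-193b-5p), -0.23 to 1.03 (miR-193a-5p to miR-193b-5p) and -0.25 to 0.74 (miR-193a-3p to miR-365-3p). The cause was not tested, beyond fewer libraries entering each such fit. Where a row failed a filter it has no value, as miR-193b-3p at 10 CPM or more in 3 libraries. Depth limits the precision of miR-193b-5p and miR-365-1-5p, with 45 and 58 reads in all. With libraries or pairs left out, miR-193b-3p kept its sign, from -0.37 to -0.02. With libraries left out, so did the ratio of miR-365-1-5p to miR-365-2-5p, from -1.82 to -0.50.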

Other observations

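Whether arms of 1 cluster moved together could not be settled over 6 libraries, since no correlation between arms passed adjustment. Among 15 pairs of the 6 tested arms, the highest correlation of log2 CPM was that of miR-193a-5p with miR-365-2-5p, both from chromosome 11 (n = 6 libraries, Pearson's r = 0.91, exact permutation p = 0.022, adjusted p = 0.33; Spearman's rho = 0.83, exact permutation p = 0.058). With the group means subtracted, Pearson's r of this pair was 0.94. Without the 2 libraries farthest from the median of miR-193a-5p it was 0.42 over 4 libraries. Leaving out the extremes narrows the range and can lower r by itself, so this does not show which libraries the relation rests on. The arms of the same Mir193a hairpin, miR-193a-3p and miR-193a-5p, gave r = -0.47 (n = 6, exact permutation p = 0.34, adjusted p = 0.81; rho = -0.31, exact permutation p = 0.56), and 0.52 without the 2 farthest libraries.

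The miRNAs whose log2 CPM over the 6 libraries was most like that of miR-365-3p, of 361 with at least 10 CPM, were miR-23a-3p (r = 0.97), miR-194-5p (0.93), miR-700-5p (0.93), miR-147-5p (0.92) and miR-582-3p (0.92). For miR-193b-3p, of 362 compared, they were miR-450b-5p (0.81), miR-148a-5p (0.80), miR-130b-5p (0.75), miR-296-3p (0.72) and miR-125b-5p (0.71). They were picked as the highest of many over 6 libraries that share scaling, and are descriptions with no test.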
